A study of Rattus norvegicus with 4 samples.

Results

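Fatty acid oxidation and acyl-CoA synthetase genes were examined in 4 mammary cancers of female Sprague-Dawley rats, an outbred stock. The rats had received whole-body carbon-ion irradiation at 7 weeks of age (1 dose of 0.5 Gy, 290 MeV/u, with a spread-out Bragg peak of 6 cm). From 9 weeks of age they ate a diet with 23.5% corn oil. They form a single group with 1 array per cancer, and it is not stated in the labels if each came from a different rat. All 4 share the irradiation and the diet. Unexposed tumours and normal gland are not analysed here, and the values therefore describe how the tumours differ from one another.

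The gene set holds 33 genes, chosen by name from the pathway and not by their values, though with earlier results of these data known. Of these, 32 had a probe set on the array that names only that gene, in 45 probe sets, out of 14217 genes so measured. Acaa1a, a peroxisomal thiolase, was not measured here because its probe set names a further gene. The probe set with the highest mean stood for each gene. A gene is called expressed when its mean log2(signal + 16) reached 7.81, the median over all probe sets, which is a signal of about 209. This held for 29 of the 32 measured members and for 9401 genes in all. The other 3 were Cpt1b, Ppara and Ppargc1a. Ehhadh (mean 7.82) and Acsm3 (mean 7.86) passed by a small margin, and Acsm3 did so through tumour 4 alone.

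Fatty acids are burnt in a relay. Acyl-CoA synthetases couple a fatty acid to coenzyme A, the carnitine shuttle (Cpt1, the carnitine carrier Slc25a20 and Cpt2) moves the acyl group into the mitochondrion, and a spiral of dehydrogenation, hydration, a further dehydrogenation and thiolysis shortens the chain. Electrons of the first dehydrogenation leave through the electron transfer flavoprotein. Very long chains begin their breakdown in peroxisomes, and peroxisome proliferator-activated receptors (PPARs), nuclear receptors that bind fatty acids, drive many of these genes in liver and muscle. In the mammary gland, fatty acids are mostly made and exported in lactation, and in tumours the pathway can serve as a source of energy.

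The labels call the tissue cancer of the mammary gland, and 14 of 16 luminal epithelial markers were expressed. Keratins Krt8 and Krt18 lay between 12.43 and 13.25 and between 11.97 and 13.30 log2, and the adhesion genes Epcam and Cdh1 between 12.89 and 13.70 and between 11.49 and 12.36. The means of oestrogen receptor Esr1 and of Foxa1 were under the filter level, with Esr1 at 4.92, 6.91, 7.06 and 8.25 in tumours 1 to 4 and so above that level in tumour 4. Of 13 measured adipocyte markers 4 were expressed, namely the lipases Lpl (mean 10.93), Pnpla2 (10.27) and Lipe (9.25) and adipsin Cfd (8.27, and 9.23 in tumour 2). Among the others, adiponectin Adipoq lay between 6.17 and 7.21, perilipin Plin1 between 6.70 and 7.44, leptin Lep between 4.58 and 4.79, and the lipid droplet gene Cidec between 4.33 and 6.10. Of 7 brown fat markers Cidea was expressed (mean 8.00). Uncoupling protein Ucp1 lay between 4.23 and 6.09, muscle creatine kinase Ckm between 6.38 and 6.92, and muscle actin Acta1 between 5.03 and 6.72, all under the filter level. Of 11 measured muscle markers 3 were expressed: Tnni2 (mean 7.98) and Atp2a1 (mean 7.95), both near that level, and Myh1, a muscle myosin by name, which read between 12.39 and 12.48 in every tumour. The arrays carried a common scale (a mean of 500.1 on each after trimming 2% from each end). As each tumour minus the mean of the other 3, the median over all expressed genes was -0.04, 0.04, 0.03 and -0.02 log2 in tumours 1 to 4. No significance test was possible with 1 group and 1 array per tumour, so the differences below are sizes with no p-value, set beside the share of all expressed genes that shows the same.

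**Figure D1:**
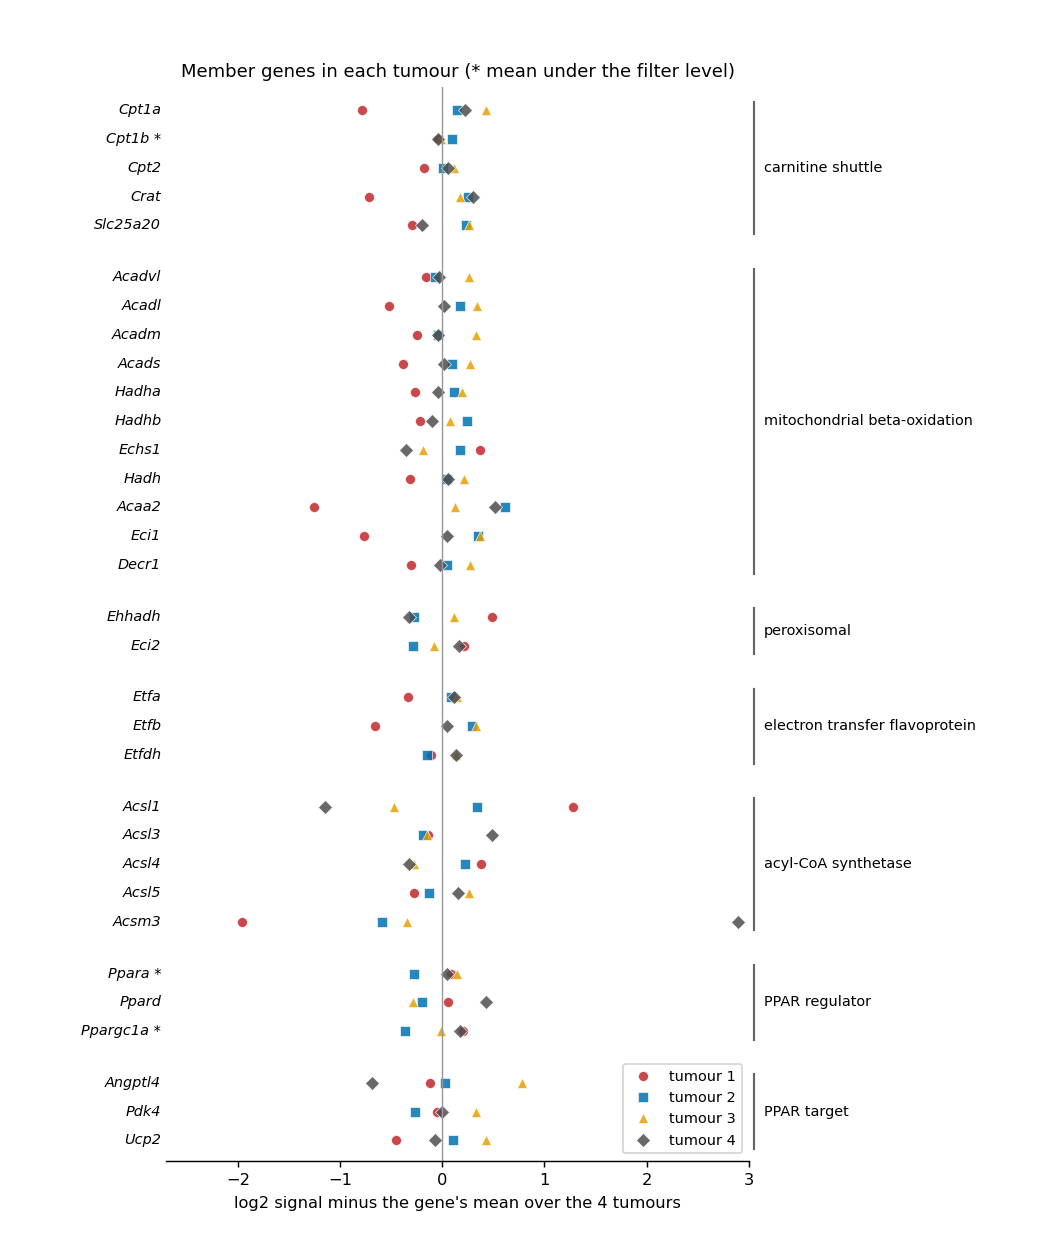
Each row is a measured member, ordered by its role, and each symbol is 1 tumour at its log2(signal + 16) minus the gene's mean over the 4 tumours, with 0 marked by the line. Tumour 1 is the leftmost symbol in most carnitine shuttle, mitochondrial and flavoprotein rows and the rightmost for Acsl1, and the symbol of Acsm3 in tumour 4 stands 2.89 above the gene's mean.

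Most shuttle, mitochondrial and flavoprotein genes were lowest in tumour 1 and highest in tumour 3, which held for 13 of these 18 and for 2 of the other 11 members. Of 29 expressed members, 19 were lowest in tumour 1, against 36.2% of all expressed genes, and 17 were highest in tumour 3, against 24.5%. Both held for 15 members, which is 51.7% of them, against 14.4% of all expressed genes. The 15 were Cpt1a, Cpt2, Slc25a20, Acadvl, Acadl, Acadm, Acads, Hadha, Hadh, Eci1, Decr1, Etfa, Etfb, Acsl5 and Ucp2. Tumour 1 lay below the mean of the other tumours in 23 of 29 members (55% of all expressed genes) and tumour 3 lay above it in 22 (54.4%). The median member was at -0.35 log2 in tumour 1, 0.11 in tumour 2, 0.25 in tumour 3 and 0.02 in tumour 4, in each case as the tumour minus the mean of the others. That tumour 3 carries higher fatty acid oxidation transcripts was known before these genes were listed, so the direction there is a description.

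Most differences were small. A range of at least 1 log2 (2-fold) over the 4 tumours was seen in 7 of 29 members (24.1%), against 12.4% of all expressed genes. The 7 were Cpt1a, Crat, Acaa2, Eci1, Acsl1, Acsm3 and Angptl4. With no filter on low values the shares were close, 21.9% of 32 members against 21.1% of all genes. With a pseudocount of 1 Acsm3 was under the filter level and Etfb took its place. With a gene's probe sets averaged, Acsl1 fell under the filter level and was not counted, whatever its range. Eci1 stayed expressed but no longer had a 2-fold range. This left 5 of 28 members (17.9%, against 11.7% of all expressed genes). Crat lay just inside this limit, with a range of 1.02, and Etfb just outside it, with 0.99. Without tumour 1 only Acsl1, Acsm3 and Angptl4 of 28 expressed members kept such a range (10.7%, against 5.75% of all expressed genes). Without tumour 4 it was Cpt1a, Acaa2, Eci1 and Acsl1 of 28 (14.3%, against 9.48%). The SD over tumours had a median of 0.32 log2 in the members and 0.21 in all expressed genes. Without tumour 1 it was 0.19 for the members and 0.17 for all expressed genes.

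The genes of the mitochondrial trifunctional protein sit head to head. Promoter windows, from 250 bases before to 50 bases after the start of each gene (RefSeq, assembly GRCr8), were found for 27 of the 32 measured members, and not for Cpt1b, Acadl, Acaa2, Decr1 and Ppard. The windows of Hadha and Hadhb lie on opposite strands of chromosome 6, overlap by 200 bases and have their start sites 301 bases apart. The windows were searched on both strands for 4 sets of letters. The full PPAR element (AGGTCANAGGTCA) was in none of the 27 windows, and in 0.0583% of 27457 promoters. The oestrogen-related receptor element TCAAGGTCA was in none either, against 0.412% of all promoters. Their common half-site AGGTCA, which lies within both longer motifs, was in 6 of the 27 (22.2%), namely Acadvl, Hadhb, Echs1, Eci1, Eci2 and Acsm3, against 15.7% of all promoters and 12.7% of the promoters of genes on the array. ACGTG, the core of the hypoxia response element, was in 3 of the 27 (11.1%), namely Angptl4, Etfa and Etfdh, against 19.7% of all promoters and 24.1% of those of genes on the array. A match is a string of letters and not a shown binding site, and a window without one says nothing of elements further away.

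The 5 windows below belong to members on which the results turn: the Hadhb side of the shared start region, Eci1 as a mitochondrial gene low in tumour 1, Acsl1 and Acsm3 as the synthetases with the widest ranges, and Angptl4 as the PPAR target highest in tumour 3. Each reads 5′ to 3′ on the gene's own strand, and capitals mark AGGTCA or ACGTG, printed as TGACCT or CACGT where the match is on the other strand. They lie at chr6:31907451-31907750 (minus strand), chr10:13961000-13961299 (plus), chr16:52532343-52532642 (minus), chr1:183564402-183564701 (plus) and chr7:15258632-15258931 (minus).
Hadhb: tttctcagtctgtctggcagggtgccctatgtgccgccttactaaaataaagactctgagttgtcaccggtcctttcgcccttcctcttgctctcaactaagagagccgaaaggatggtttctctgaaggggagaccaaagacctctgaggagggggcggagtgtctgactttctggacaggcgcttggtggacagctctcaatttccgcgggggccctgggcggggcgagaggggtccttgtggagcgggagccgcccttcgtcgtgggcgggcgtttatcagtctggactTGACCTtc
Eci1: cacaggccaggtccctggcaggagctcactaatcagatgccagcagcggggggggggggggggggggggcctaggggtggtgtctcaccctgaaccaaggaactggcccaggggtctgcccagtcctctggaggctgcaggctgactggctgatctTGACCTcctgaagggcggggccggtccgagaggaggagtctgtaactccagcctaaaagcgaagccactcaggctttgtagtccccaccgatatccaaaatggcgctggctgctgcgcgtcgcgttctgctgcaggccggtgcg
Acsl1: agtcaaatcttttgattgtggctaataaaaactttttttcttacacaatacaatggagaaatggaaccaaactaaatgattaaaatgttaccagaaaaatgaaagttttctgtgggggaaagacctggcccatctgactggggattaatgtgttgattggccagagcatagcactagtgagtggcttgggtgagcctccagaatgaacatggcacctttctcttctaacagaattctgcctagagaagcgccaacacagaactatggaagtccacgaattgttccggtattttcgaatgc
Acsm3: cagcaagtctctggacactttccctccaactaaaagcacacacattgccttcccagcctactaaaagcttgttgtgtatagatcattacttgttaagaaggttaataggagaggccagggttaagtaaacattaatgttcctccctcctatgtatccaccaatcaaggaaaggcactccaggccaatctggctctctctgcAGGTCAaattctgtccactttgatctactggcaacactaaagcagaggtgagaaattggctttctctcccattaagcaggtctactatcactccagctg
Angptl4: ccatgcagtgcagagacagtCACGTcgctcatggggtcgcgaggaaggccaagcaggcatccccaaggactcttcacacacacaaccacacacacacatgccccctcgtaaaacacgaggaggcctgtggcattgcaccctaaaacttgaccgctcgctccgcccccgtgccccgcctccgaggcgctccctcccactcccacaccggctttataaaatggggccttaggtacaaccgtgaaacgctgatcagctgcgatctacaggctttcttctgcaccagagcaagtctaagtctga

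The half-site began at base 43 after the start of Hadhb, 94 bases before the start of Eci1 and 49 before that of Acsm3, and the hypoxia core began 230 bases before the start of Angptl4. The Acsm3 window held 0 CpG dinucleotides and 44.7% G and C, and that of Acsl1 held 4 and 40.7%. The 27 member windows had a median of 16 CpG and 60.7% G and C, against 19 and 60% for the promoters of genes on the array. Among the other synthetases, the windows of Acsl3 and Acsl4 held 39 and 33 CpG. The start sites are those of the annotation, and their use in these tumours was not tested, so a window need not be the promoter in use. With so few genes this is a description of the windows only.

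Carnitine shuttle transcripts were lower in tumour 1. Cpt1a, the rate-limiting enzyme that forms acyl-carnitine at the outer mitochondrial membrane, measured 10.17, 11.10, 11.39 and 11.18 log2 in tumours 1 to 4 (mean 10.96 ± 0.54, SD, n = 4). Tumour 1 was 0.93 below the nearest tumour, and the other 3 lay within 0.29 of one another. The other probe set of Cpt1a measured 9.95, 10.50, 11.08 and 10.89, with the same highest and lowest tumours. Crat, carnitine acetyltransferase, which buffers acetyl-CoA, measured 8.49 in tumour 1, against 9.46, 9.38 and 9.50 in tumours 2 to 4 (SD 0.48). Tumour 1 thus differed by -0.96 from the mean of the others, which were nearly level. Slc25a20, the carrier that exchanges acyl-carnitine for carnitine across the inner membrane, measured 9.08, 9.61, 9.64 and 9.17 (SD 0.29), so that tumours 1 and 4 were low and tumours 2 and 3 high. Cpt2, which returns the acyl group to coenzyme A inside the mitochondrion, varied little, with 9.13, 9.33, 9.43 and 9.37 (SD 0.13). Cpt1b, the muscle form of the first enzyme, was under the filter level and flat, between 7.67 and 7.81. The median of the 4 expressed shuttle genes was -0.68 in tumour 1, and 0.25, 0.29 and 0.18 in tumours 2, 3 and 4.

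The 4 member acyl-CoA dehydrogenases, which take the first step on chains of different length, all placed tumour 3 highest and tumour 1 lowest. Expressed dehydrogenases outside the member list did not share this order. Acad8, Acad11 and Ivd were lowest in tumour 4, Acad10 was highest in tumour 1 (8.92), and Acad9 was nearly flat (range 0.06). Acadvl, for very long chains, measured 9.75, 9.84, 10.17 and 9.88 in tumours 1 to 4 (SD 0.18). Acadl, for long chains, measured 10.75, 11.45, 11.61 and 11.29 (SD 0.37). Acadl had the widest range of the 4, 0.86 log2, and its value in tumour 1 stood 0.54 below the nearest tumour. Acadm, for medium chains, measured 10.28, 10.48, 10.85 and 10.48 (SD 0.24), and Acads, for short chains, 9.24, 9.73, 9.90 and 9.65 (SD 0.28). In Acadvl and Acadm tumour 3 stood apart upwards, by 0.29 and 0.37, whereas in Acadl and Acads the larger gap was that of tumour 1 downwards. Differences of tumour 1 from the mean of the others were -0.21 for Acadvl, -0.70 for Acadl, -0.33 for Acadm and -0.52 for Acads.

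The later steps of the spiral mostly kept this order, with 1 gene in the opposite direction. The trifunctional protein carries out the steps after the first on long chains. Its alpha subunit Hadha measured 10.65, 11.03, 11.10 and 10.87 (SD 0.20), and its beta subunit Hadhb 10.94, 11.39, 11.23 and 11.06 (SD 0.20). The head-to-head pair had equal ranges, 0.45 log2 each, and both were lowest in tumour 1 and next lowest in tumour 4, with the higher tumours 2 and 3 in opposite order. Hadh, the dehydrogenase for shorter chains, measured 10.94, 11.30, 11.46 and 11.30 (SD 0.22). Acaa2, the thiolase that releases acetyl-CoA, measured 9.68 in tumour 1, against 11.55, 11.05 and 11.45 in tumours 2 to 4 (SD 0.86), the widest range among the mitochondrial members (1.87 log2, or 3.66-fold). Its tumour 1 value lay 1.38 below the nearest tumour, and its second probe set, under the filter level, showed the same lowest tumour, with 6.11, 7.96, 7.93 and 7.45. Echs1, the hydratase of the second step for short chains, ran the other way, with 10.60, 10.41, 10.05 and 9.88 (SD 0.33). Against the mean of the others, tumour 1 thus differed by 0.49 in Echs1 and by -1.67 in Acaa2, which act in the same spiral.

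Among the auxiliary enzymes for unsaturated chains, the mitochondrial Eci1 and Decr1 were lowest in tumour 1. Others were not: Eci2 was highest there (10.44), and Decr2, outside the member list, was lowest in tumour 2 (8.43, against 8.82 in tumour 1). Eci1, the mitochondrial enoyl-CoA isomerase that shifts double bonds, measured 9.95, 11.06, 11.09 and 10.76 (SD 0.53), with tumour 1 lower by 0.82 than the nearest tumour. Decr1, the dienoyl-CoA reductase, measured 10.88, 11.24, 11.46 and 11.17 (SD 0.24). In both, tumours 2 to 4 lay within 0.33 of one another. The second probe set of Eci1 was far under the filter level, between 4.69 and 5.49, and did not share the order.

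Both subunits of the electron transfer flavoprotein, which receives electrons from the acyl-CoA dehydrogenases, were lowest in tumour 1. Etfa measured 10.99, 11.41, 11.47 and 11.44 (SD 0.23), so that tumours 2 to 4 were nearly equal and tumour 1 lay 0.42 below them. Etfb measured 9.58, 10.52, 10.57 and 10.28 (SD 0.46). The difference of tumour 1 from the mean of the others was larger in Etfb (-0.88) than in its partner Etfa (-0.45). Etfdh, the oxidoreductase that passes these electrons on to ubiquinone, was nearly flat, with 8.92, 8.89, 9.17 and 9.17 (SD 0.15).

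Counted together, the 18 expressed genes of the shuttle, the mitochondrial enzymes and the flavoproteins had a median of -0.41 in tumour 1, 0.17 in tumour 2, 0.31 in tumour 3 and 0.04 in tumour 4. Of these 18, 17 lay below the mean of the others in tumour 1, with Echs1 as the exception, and 17 lay above it in tumour 3, again with Echs1 as the exception. A stretch of at least 0.5 log2 between tumour 1 and each other tumour, a limit set after the values were seen, was found downwards in Cpt1a, Crat, Acadl, Acaa2, Eci1, Etfb and Acsm3, 7 of 29 members (24.1%), against 4.72% of all expressed genes. The values of Acsm3 in tumours 1 to 3 are all under the filter level, and with a pseudocount of 1, where that gene drops out, the count was 6 of 28 (21.4%, against 4.95%).

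Of the peroxisomal members, 2 were expressed, too few to describe the pathway. Ehhadh, the bifunctional hydratase and dehydrogenase of the peroxisome, measured 8.31, 7.55, 7.94 and 7.50 in tumours 1 to 4 (SD 0.38), and its values in tumours 2 and 4 were under the filter level. Eci2, an isomerase found in peroxisomes and mitochondria, measured 10.44, 9.94, 10.14 and 10.39 (SD 0.23). Both were highest in tumour 1, by 0.65 and 0.28 above the mean of the others, although Eci2 in tumour 1 exceeded tumour 4 by only 0.05. In all, 5 of the 29 members were highest in tumour 1 (17.2%), against 28.1% of all expressed genes, and these were Echs1, Ehhadh, Eci2, Acsl1 and Acsl4.

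**Figure D2:**
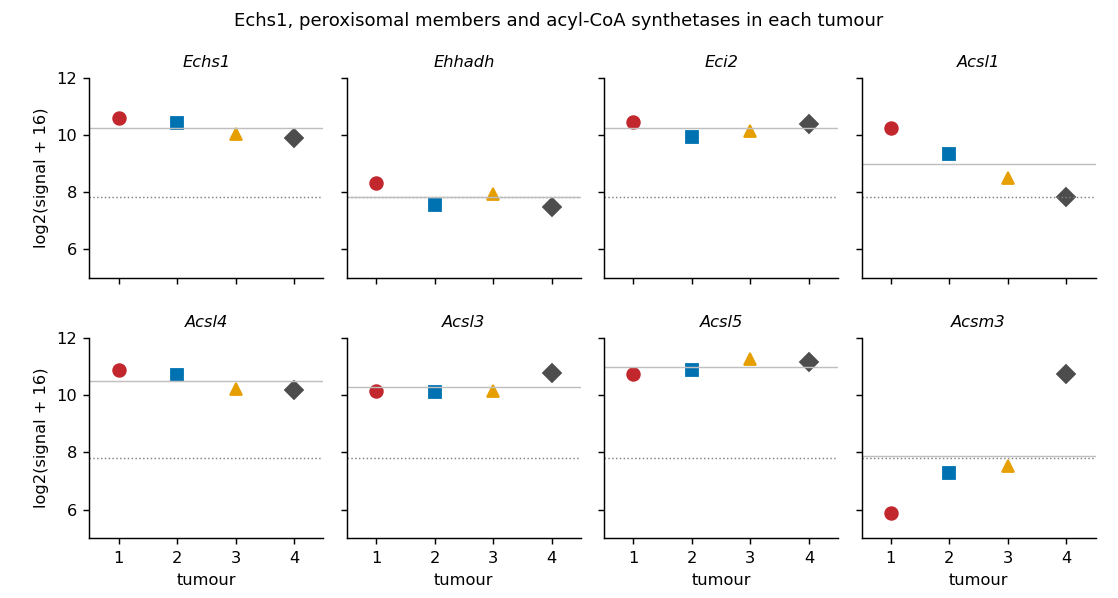
Each panel is 1 gene, with the tumour on the x axis and log2(signal + 16) on the y axis, the grey line at the gene's mean and the dotted line at the filter level of 7.81. Acsl1 spans 10.25 in tumour 1 to 7.83 in tumour 4, and Acsm3 stands at 10.75 in tumour 4 against at most 7.51 in the others.

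The acyl-CoA synthetases shared no order. Acsl1, the main long-chain synthetase of fat, liver and heart, measured 10.25, 9.32, 8.50 and 7.83 in tumours 1 to 4 (SD 1.05), a range of 2.42 log2 or 5.36-fold. No 2 tumours were closer than 0.67, tumour 1 was 1.70 above the mean of the others, and tumour 4, near the filter level, differed from that mean by -1.53. A second probe set of Acsl1, whose mean was under the filter level, measured 8.58, 7.96, 6.72 and 7.04 and so had tumour 1 highest too, with tumour 3 in place of tumour 4 lowest. The remaining one, between 5.21 and 5.82, was also highest in tumour 1.

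Acsl4, which prefers arachidonate and other polyunsaturated fatty acids, measured 10.88, 10.71, 10.22 and 10.16 (SD 0.35). Tumours 1 and 2 were thus higher than tumours 3 and 4, the same split as for Acsl1 and Echs1. Acsl3, a synthetase of the endoplasmic reticulum and lipid droplets, measured 10.78 in tumour 4, against 10.16, 10.11 and 10.15 in tumours 1 to 3 (SD 0.32), a gap of 0.63 above 3 nearly equal values. Acsl5, a synthetase of mitochondria and endoplasmic reticulum, followed the mitochondrial order instead, with 10.72, 10.87, 11.26 and 11.15 (SD 0.25). Its second probe set, also at the filter level, was lowest in tumour 1 (8.44) but highest in tumour 4 (9.42).

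Acsm3, a mitochondrial synthetase for medium-chain fatty acids, showed the widest range of any member. Its deposited signal was 1708 in tumour 4, against 43.6, 138 and 167 in tumours 1, 2 and 3, or 10.75 against 5.90, 7.26 and 7.51 log2. The values in tumours 1 to 3 were under the filter level, so the 3.24 log2 between tumour 4 and the next tumour is uncertain in size. Acsm3 had 1 probe set and no check by another. Hypoxia and glycolysis genes were also highest in tumour 4, in 14 of 17 expressed genes, against 1987 of all 9401 expressed genes. Their median there was 0.74. Among them were the prolyl hydroxylase Egln3 at 11.12, against 8.25 to 8.77 in the others, and carbonic anhydrase Car9 at 9.39, against 7.25 to 7.59. The mitophagy receptor Bnip3 was at 11.58, against 9.97 to 10.07, and the oxidase Ero1a at 11.04, against 9.63 to 10.30. Ddit4 and P4ha1 were highest in tumour 1 instead, at 11.83 and 11.16, with 11.32 and 10.98 in tumour 4. Fibroblast and matrix markers were lowest in tumour 4, in all 9 expressed genes, with a median of -1.69. Of all 9401 expressed genes, 2363 were lowest in that tumour. The part of either in the values of Acsm3 and Acsl3 was not tested.

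Of the receptors and their coactivator, Ppara and Ppargc1a were under the filter level and Ppard was expressed. Ppara, the receptor that drives oxidation in liver, lay between 4.49 and 4.91, far under the filter level. Ppargc1a, the coactivator that raises mitochondrial gene expression, lay between 7.10 and 7.67 on its brightest probe set, just under that level, and between 4.44 and 6.09 on the other 2. Ppard, the broadly expressed receptor, measured 9.58, 9.33, 9.24 and 9.95 (SD 0.32). Ppard was thus highest in tumour 4 and lowest in tumour 3, and its other probe set, under the filter level, was also highest in tumour 4.

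The 3 members grouped here as PPAR targets were highest in tumour 3 on the probe sets used. They are a choice of genes and not all targets of PPARs. Outside the members, 16 genes of PPAR and oestrogen-related receptor signalling were expressed. Of these, 2 were highest in tumour 3, and 11 lay above the mean of the others there. Angptl4, a secreted inhibitor of lipoprotein lipase, measured 9.81 in tumour 3, against 8.91, 9.05 and 8.34 in tumours 1, 2 and 4 (SD 0.61). It stood 0.76 above the nearest tumour, and its range of 1.47 log2 was 2.77-fold. Ucp2, an uncoupling protein of the inner mitochondrial membrane, measured 12.06, 12.61, 12.94 and 12.44 in tumours 1 to 4 (SD 0.37). Pdk4, the kinase that closes pyruvate dehydrogenase when fat is burnt, measured 8.65, 8.43, 9.04 and 8.70 (SD 0.25). The second probe set of Pdk4, also at the filter level, gave 8.50, 7.94, 8.28 and 8.18, with the same lowest tumour but with tumour 1 highest, so tumour 3 was not the highest on both. Angptl4 is also a known target of hypoxia, and it was lowest in tumour 4, where most hypoxia genes were highest. The part of hypoxia or of PPARs in the values of Angptl4 was not tested.

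**Figure D3:**
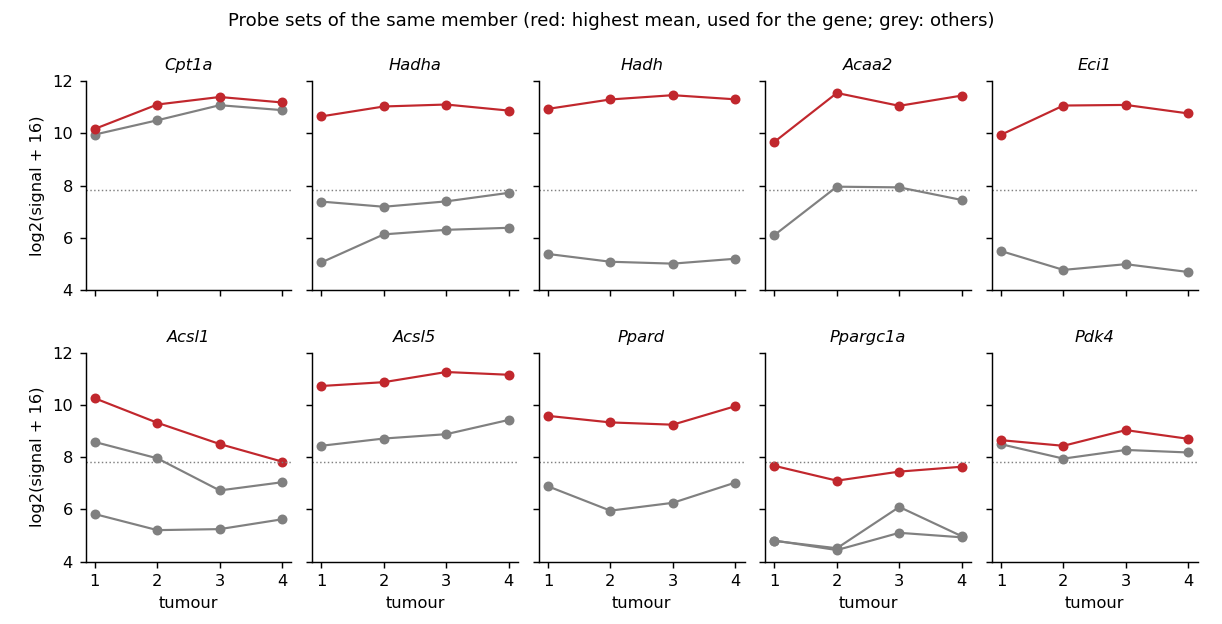
Each panel is a member with more than 1 probe set, and each line joins the log2(signal + 16) of 1 probe set over tumours 1 to 4, with the one used for the gene in red, the others in grey and the filter level dotted. Both lines of Cpt1a and both of Acaa2 are lowest in tumour 1, while the grey lines of Hadh and Eci1, under the filter level, are highest there.

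Separate probe sets of a gene share the RNA and the array and differ in their probes, so they bear on the probes alone. Of 10 members with more than 1 probe set, 3 had a second one at the filter level, namely Cpt1a, Acsl5 and Pdk4. The lowest tumour was the same on both probe sets in 3 of these 3 and the highest tumour in 1 of 3. Of the 10 further probe sets under the filter level, 4 shared the lowest tumour and 4 the highest.

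**Figure D4:**
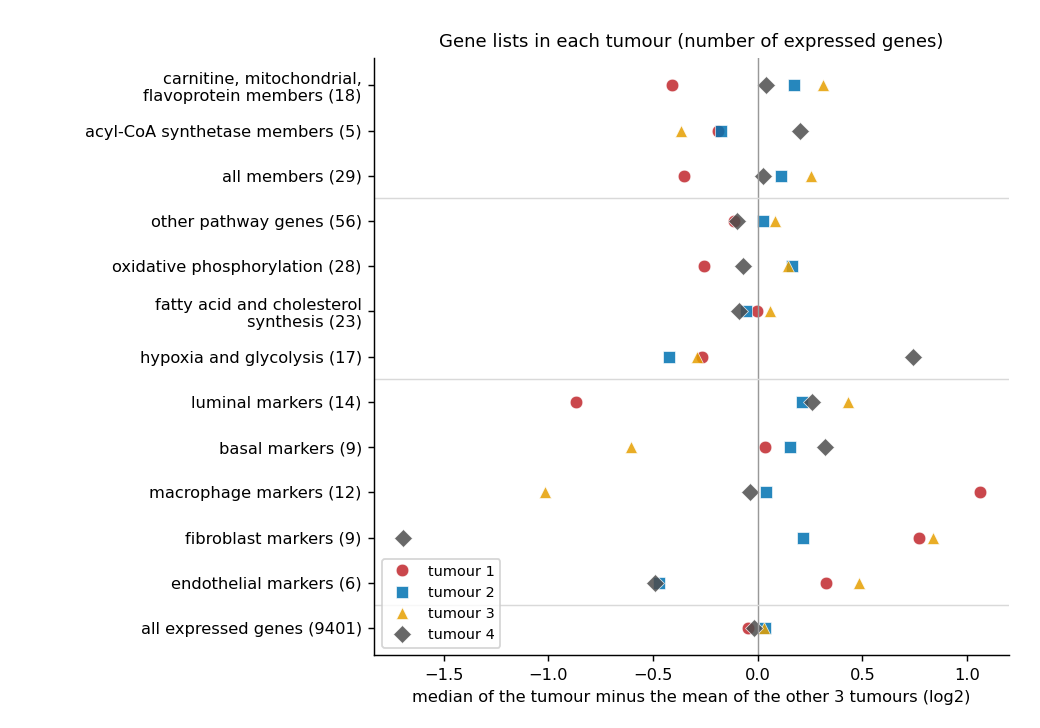
Each row is a gene list with its number of expressed genes, and each symbol is 1 tumour at the median over those genes of the tumour minus the mean of the other 3 tumours, in log2. The 18 shuttle, mitochondrial and flavoprotein genes reach -0.41 in tumour 1 and 0.31 in tumour 3, while luminal markers reach -0.87 and macrophage markers 1.06 in tumour 1.

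The other genes of fatty acid breakdown and transport varied less as a group than the members did. Of 85 such genes, 79 were measured and 56 expressed. A range of at least 1 log2 was seen in 9 of the 56 (16.1%), against 12.4% of all expressed genes and 24.1% of members. The median SD was 0.32 in the members, 0.21 in all expressed genes and 0.23 in these 56. Their medians were -0.11, 0.02, 0.08 and -0.10 in tumours 1 to 4, beside -0.35, 0.11, 0.25 and 0.02 for the members. Of 10 expressed peroxisomal genes outside the member list, 7 lay below the mean of the others in tumour 1 (median -0.15) and 7 above it in tumour 3 (median 0.10). Both with a range of at least 1 log2 were exceptions in tumour 1. Crot, which moves shortened chains out of the peroxisome as carnitine esters, measured 11.15, 10.41, 10.76 and 9.97, highest in tumour 1. Phyh, the enzyme that starts breakdown of branched phytanic acid, was high in tumours 1 and 4, with 9.28 and 9.12, and low in tumours 2 and 3, with 8.24 and 8.18. Among 20 mitochondrial genes, the widest range was that of Ivd, isovaleryl-CoA dehydrogenase of leucine breakdown, with 10.78, 12.25, 11.78 and 10.26, followed by Bdh1, a ketone body dehydrogenase, with 8.02, 8.75, 7.50 and 7.75. Ivd feeds the same flavoprotein as the member dehydrogenases, and it was lowest in tumour 4 and not in tumour 1.

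Of 10 expressed uptake and binding genes, 6 lay above and 4 below the mean of the others in tumour 1, with a median of 0.26, or 0.11 without the filter. Fabp5, a fatty acid binding protein of epithelium and macrophages, measured 12.72 in tumour 1 and 11.66, 11.66 and 12.32 in tumours 2 to 4. Acss2, which activates acetate, measured 10.34 in tumour 1 and 8.73 to 9.10 in the others. Fabp3, the heart form of the binding protein, which mammary epithelium also makes, was lowest in tumour 4, with 10.93, 10.48, 11.21 and 9.64. Among 16 expressed genes of PPAR and oestrogen-related receptor signalling, Esrrb ranged most, with 8.42, 9.09, 9.59 and 7.71, so that tumour 3 was highest as for Angptl4. Rxra, the partner receptor of PPARs, measured 8.71, 7.75, 8.32 and 9.00.

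Respiratory chain genes were also low in tumour 1, and were high in tumours 2 and 3. Of 28 expressed oxidative phosphorylation genes, 23 were lowest in tumour 1. In tumour 3, 21 lay above the mean of the others, 10 were highest there and 17 in tumour 2, and no gene had a range of 1 log2. Their medians were -0.26, 0.16, 0.14 and -0.07. The 23 expressed genes of fatty acid and cholesterol synthesis had medians between -0.09 and 0.06 in every tumour, so that synthesis genes as a list stood near the median of all genes in tumours 1 and 3, where the members did not. Of this list, 6 of 23 genes had a range of at least 1 log2 (26.1%), against 24.1% of members and 12.4% of all expressed genes. Thrsp, which promotes lipogenesis, measured 12.61, 11.49, 12.25 and 10.03, lowest in tumour 4. Insig1, a brake on sterol synthesis, was highest in tumour 1 (10.59, against 9.02 to 9.62). The synthesis enzymes Sqle and Elovl6 were lowest there (8.31 and 7.85, against at least 9.29 and 8.48). Fads1 and Fads2, desaturases that make polyunsaturated fatty acids, were highest in tumour 1, as were Acsl1 and Acsl4, with 12.29 and 10.24 against at most 11.50 and 9.45. These differences between lists were not tested.

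The same tumours also differed in markers of cell types. In bulk tissue, fewer cells of a type and less RNA per cell cannot be told apart. In tumour 1, 13 of 14 expressed luminal epithelial markers lay below the mean of the others, with a median of -0.87, and the summed signal of the 16 measured markers was 38687, against 69336 to 80013 in the other tumours. All 12 expressed macrophage markers were above it there, with a median of 1.06, and the summed signal of the 14 measured ones was 25706, against 9803 to 15472. In tumour 3, by contrast, all 12 lay below it, with a median of -1.01, while 13 of 14 luminal markers lay above it, with a median of 0.43. The mitochondrial members were thus low where luminal markers were low and macrophage markers high, and high where the reverse held. Not all cell types differed in this way. Fibroblast and matrix markers had medians of 0.77 in tumour 1 and 0.84 in tumour 3, and endothelial markers of 0.33 and 0.48. Both lists were thus high in the tumour where the members were low and in the one where they were high. Basal and myoepithelial markers had a median of 0.03 in tumour 1 and -0.61 in tumour 3. Adipocyte markers summed to 5153, 5973, 4638 and 4411 in tumours 1 to 4 and were highest in tumour 2, and 3 of their genes, Cd36, Fabp4 and Lpl, are in the uptake list too. The part of any of these cell types in the members' differences was not tested.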

How the data were processed

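Per the labels' protocols, 8 µg of total RNA of each cancer was primed with oligo-dT joined to a T7 promoter, and biotin was added during transcription in vitro, which favours 3' ends. The deposited table holds 1 linear intensity for each of 31099 probe sets per tumour. Which software scaled them is not stated. Equal trimmed means show that the authors' values already share a scale. Probe sets were named from GEO's platform annotation. Of 21268 listed, 20826 named 1 gene and were used, 436 named several and were left out, and 57 control probe sets were left out. For 20758 the gene identifier was in the RefSeq gene table (GRCr8), and no symbol changed.

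Intensities were transformed as log2(value + 16) without further shift, because shifting arrays to a common median moved the median expressed gene away from 0. A difference on this scale understates changes of weak genes. With 1 group of 4 arrays, whose number limits the precision, there was no test. The members, lists and limits were chosen with earlier results of these data known. All members are named. Of the other lists, the expressed genes with the widest ranges of at least 1 log2 are named, at most 6 per list, and of the markers the defining ones. The arithmetic was tested on simulated data (Python 3.11.15, pandas 2.3.3, NumPy 2.4.6, SciPy 1.17.1).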

Additional observations from a re-analysis of the deposited data

Results flagged for a closer look

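Of 29 expressed members, 3 had 1 tumour far from the others, by the gap to the nearest tumour over the whole range (Dixon's limit for 4 samples). These are 10.3% of the members, and 5.63% of all expressed genes passed the same limit. About 1 gene in 20 passes it by chance. The ratio was 0.879 for Crat, where tumour 1 was lowest, 0.871 for Etfa, where tumour 1 was also lowest, and 0.927 for Acsl3, where tumour 4 was highest.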

How the results depend on the processing

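Alternatives were a pseudocount of 1 or 64, arrays shifted to a common median, quantile normalization, the mean of a gene's probe sets, no filter, a filter at the 75th percentile, and leaving out each tumour. Of the recomputed summary values, 83 stayed close to the reported ones and 3 moved, all of them counts of members with a 2-fold range. The limit was wide. A median difference counted as close if it moved by less than the members' median SD of 0.32 log2. A small median could therefore change sign and still count as close, as the next ones did. Without tumour 1 the median member changed sign in tumours 2 and 4, to -0.06 and -0.15, and in tumour 4 also after the shift to a common median, to -0.04. The count of members with a 2-fold range was 3 of 20 with the filter at the 75th percentile (15%, against 8.99% of all expressed genes). It was 3 to 7 when 1 tumour was left out, with 3 of 28 without tumour 1 (5.75% of all expressed genes) and 4 of 28 without tumour 4 (9.48%). It was 9 of 29 after the shift to a common median (13.0%). The median member stayed between -0.44 and -0.30 in tumour 1 and between 0.16 and 0.36 in tumour 3. The lower end in tumour 3 was reached without tumour 1. The share of members lowest in tumour 1 ran from 62.5% (20 of 32, no filter) to 75% (15 of 20, 75th percentile). Over all expressed genes it ran from 30.3% to 44.5%. The share highest in tumour 3 ran from 50% (14 of 28, probe sets averaged) to 65% (13 of 20, 75th percentile), against 22.4% to 37.6%. Ranges of single members were recomputed only with a pseudocount of 1, the common-median shift and quantile normalization. All 87 of these stayed within 1 SD. Ranges of single members with probe sets averaged or a tumour left out were not checked this way. No detection calls were used here, so values under the filter level are uncertain in size.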
